A study of Mus musculus with 12 samples.

Results

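The platelet-derived growth factor (PDGF) family was followed here through the genes of its ligands, Pdgfa, Pdgfb, Pdgfc and Pdgfd, and of its receptors, Pdgfra and Pdgfrb. These 6 genes were found by matching the mouse Ensembl identifiers of the deposited tables to their symbols in GENCODE M21, and they are 6 of the 30630 genes listed for every tumor. The tumors were grown from CT-26, a mouse colon carcinoma cell line that was injected with Matrigel under the skin of the right flank of male BALB/c mice, bought at 4 to 6 weeks of age. RNA was sequenced from 6 tumors of the control group and from 6 tumors of the swimming group, whose mice swam for 3 weeks. No allele or agent is named for either group, and the comparison asks whether PDGF expression in the tumor differed after swimming. Each tumor is a whole piece of tissue, so CT-26 cells and host fibroblasts, vessels and immune cells are measured together. In such bulk tissue, fewer cells of a type and less RNA per cell cannot be told apart.

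PDGFs are secreted as dimers and act on receptor tyrosine kinases that pair on the cell surface when a ligand binds. PDGF-A acts on receptor alpha, PDGF-B on receptor alpha and receptor beta, PDGF-C mainly on receptor alpha and PDGF-D mainly on receptor beta. In tumors the receptors are known mainly from fibroblasts and from the pericytes that cover small vessels. Endothelial cells, platelets and tumor cells are known sources of the ligands.

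No difference between the groups was detected for any of the 6 genes. With limma, 0 of the 6 passed an adjusted p of 0.05, a threshold that 0% of the 19018 genes tested passed. An unadjusted p of 0.05 was passed by 0 of the 6 and by 5.56% of all genes tested. The values of both groups overlapped for all 6 genes, while 0.147% of the genes tested had groups that did not overlap. All 6 genes reached 0.1 FPKM in 6 or more tumors, the filter used. The spread between tumors of the same group was larger than any difference between the groups, and Pdgfra and Pdgfrb varied together across it (r = 0.91).

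RefSeq windows upstream of the start are given for 4 of the 6 genes and are printed 5′ to 3′ on the strand of the gene. No window was available for Pdgfb, and Pdgfrb was left out by choice. The window of the most abundant ligand is GC-rich, and those of the weakly expressed ligands and of Pdgfra have a moderate GC content. Each window was cut at the first base inside an annotated exon of a protein-coding gene, which shortened the Pdgfa window. That window keeps the 157 bases farthest from the RefSeq start and lacks those next to it. It lies within the annotated span of Pdgfa, so it does not describe the bases at the start itself. Capitals mark matches, on either strand, to any of 5 motifs. One is the GC box, GGGCGG, and another the TATA box, TATAAA. The core bound by hypoxia-inducible factors was searched as ACGTG. It was also searched in its other form, GCGTG. The last motif is the CArG box bound by serum response factor.
Pdgfa, GRCm38.p6, chr5:138995038-138995194, minus strand: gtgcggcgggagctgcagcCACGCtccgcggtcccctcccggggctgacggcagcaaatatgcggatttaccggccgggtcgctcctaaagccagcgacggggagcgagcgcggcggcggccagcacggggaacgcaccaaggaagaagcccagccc
Pdgfc, GRCm38.p6, chr3:81036166-81036415, plus strand: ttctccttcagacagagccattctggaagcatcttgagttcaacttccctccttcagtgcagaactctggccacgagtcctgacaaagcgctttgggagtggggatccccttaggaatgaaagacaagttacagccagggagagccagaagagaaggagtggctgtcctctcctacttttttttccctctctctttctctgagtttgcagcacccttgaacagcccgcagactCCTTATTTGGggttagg
Pdgfd, GRCm38.p6, chr9:6168236-6168485, plus strand: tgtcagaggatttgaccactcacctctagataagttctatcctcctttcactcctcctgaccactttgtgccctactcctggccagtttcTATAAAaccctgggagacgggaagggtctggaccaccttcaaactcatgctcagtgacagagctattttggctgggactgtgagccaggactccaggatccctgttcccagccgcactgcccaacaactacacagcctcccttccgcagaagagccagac
Pdgfra, GRCm38.p6, chr5:75152001-75152250, plus strand: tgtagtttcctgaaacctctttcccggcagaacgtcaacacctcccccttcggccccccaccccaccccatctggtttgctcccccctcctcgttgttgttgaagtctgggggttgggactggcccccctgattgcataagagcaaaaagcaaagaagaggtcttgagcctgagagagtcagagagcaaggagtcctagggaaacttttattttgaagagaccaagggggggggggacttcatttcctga

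GC content was 72% in the Pdgfa window, above that of 93.7% of all 32851 promoter windows. Those windows were shortened to 157 bases as well, but exon bases in them were kept. GC content was 50.8% for Pdgfc, 53.6% for Pdgfd and 54.4% for Pdgfra. The Pdgfc window holds a CArG box, CCTTATTTGG, whose first base is at -17 relative to the RefSeq start, and 1.47% of all windows of this length hold one. The Pdgfd window holds TATAAA with its first base at -160, as 12.4% of all windows hold the motif somewhere. In the Pdgfa window GCGTG was matched once, on the other strand, and 17.2% of windows of its length hold it. GGGCGG and ACGTG were not matched in the 4 windows, and no motif was matched in that of Pdgfra. No matches overlapped each other.

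In the GRCm38 annotation Pdgfa (ENSMUSG00000025856) lies on chromosome 5 from 138976014 to 138997370 on the minus strand, with 7 annotated transcripts. Pdgfb (ENSMUSG00000000489) lies on chromosome 15 from 79995874 to 80014977, also on the minus strand. Pdgfc (ENSMUSG00000028019) lies on chromosome 3 from 81036416 to 81214040 and Pdgfd (ENSMUSG00000032006) on chromosome 9 from 6168584 to 6378850. Both are on the plus strand and are long genes, with spans of 177625 and 210267 bases. Pdgfra (ENSMUSG00000029231) lies on chromosome 5 from 75152292 to 75198215 with 9 annotated transcripts, and Pdgfrb (ENSMUSG00000024620) on chromosome 18 from 61045150 to 61085061 with 2. All 6 are protein-coding, and each value covers all transcripts of a gene. Exons of Pdgfa overlap those of the antisense gene 6330403L08Rik, which was between 3.83 and 5.36 FPKM in the 12 tumors. Exons of Pdgfra overlap those of Gm42803, which was at 0 in 5 tumors and reached at most 0.579 FPKM. The sources used here do not say whether strand was used in quantification, so reads of such overlapping genes cannot be told apart.

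FPKM is already divided by gene length, so the levels of different genes can be set side by side. Averaged over the 12 tumors, Pdgfrb was highest at 14.8 FPKM, followed by Pdgfa at 13.6, Pdgfb at 5.17, Pdgfra at 5.12, Pdgfc at 1.49 and Pdgfd at 0.522 FPKM. Pdgfrb thus lay above 79.9% of the genes tested and Pdgfd above 24.3%. Pdgfrb and Pdgfa did not differ beyond their spread, since Pdgfrb was the higher of the pair in 8 of 12 tumors. Nor did Pdgfb and Pdgfra, with Pdgfb higher in 5 of 12 tumors. In contrast, Pdgfa was above Pdgfb, Pdgfra above Pdgfc, and Pdgfc above Pdgfd in 12 of 12 tumors. Of the summed FPKM of the 4 ligands, Pdgfa made up 64.7% ± 4.65 (SD, n = 6) in control tumors and 65.6% ± 5.88 (SD, n = 6) in swimming tumors. Pdgfb made up 25.2% ± 4.75 and 25.0% ± 3.16, Pdgfc 7.78% ± 0.939 and 6.69% ± 2.85, and Pdgfd 2.36% ± 0.648 and 2.73% ± 1.12 of it. The differences between the groups were smaller than both SDs for Pdgfa, Pdgfb and Pdgfd, and for Pdgfc smaller than the SD of the swimming but not of the control tumors.

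**Figure D1:**
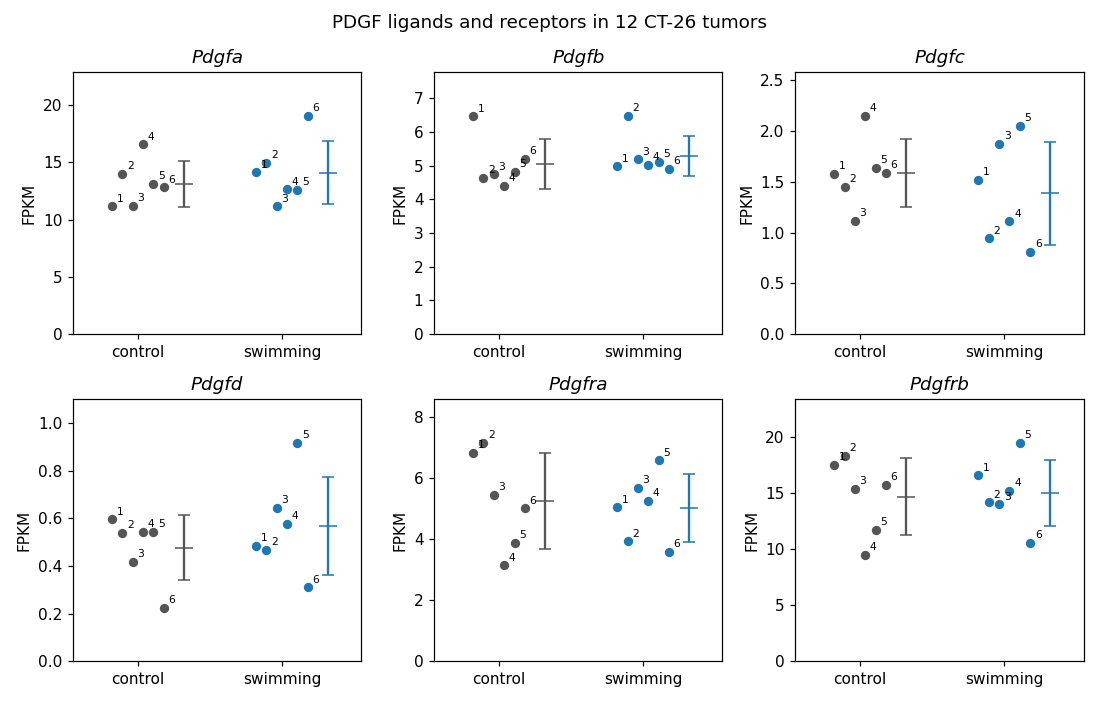
FPKM of each PDGF ligand and receptor gene in 6 control tumors (grey) and 6 swimming tumors (blue), with the replicate number beside each point and the mean ± SD to the right of each group. The groups overlap in every panel, swimming 6 is the highest tumor for Pdgfa at 19.1 FPKM and control 4 the lowest for Pdgfra at 3.14 and Pdgfrb at 9.51 FPKM.

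Pdgfa encodes the chain of PDGF-AA, the ligand of receptor alpha. In the control group it ranged from 11.2 to 16.6 FPKM with a median of 12.97, and in the swimming group from 11.2 to 19.1 FPKM with a median of 13.4. The highest values belonged to swimming 6 and control 4, and 3 of 6 swimming tumors were above the control median. The means were 13.1 ± 2.01 FPKM (SD, n = 6) and 14.1 ± 2.77 FPKM (SD, n = 6). On the log2(FPKM + 1) scale, which understates changes of weakly expressed genes, the difference was 0.09 (95% confidence interval -0.17 to 0.35) (p = 0.526 in the two-sided exact permutation test). Without swimming 6 the difference shrank to 0.001.

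Pdgfb encodes the chain of PDGF-BB, which endothelial cells release to recruit pericytes. It was the steadiest of the 6 genes in the swimming group, where it ranged from 4.92 to 6.49 FPKM with a median of 5.08, and it ranged from 4.41 to 6.47 FPKM (median 4.78) in the control group. Swimming 2 at 6.49 and control 1 at 6.47 FPKM stood above the other 10 tumors, none of which exceeded 5.21 FPKM. All 6 swimming tumors were above the control median, but the means of 5.05 ± 0.744 and 5.29 ± 0.598 FPKM (SD, n = 6 each) differed by less than either SD. The log2 difference was 0.06 (95% confidence interval -0.13 to 0.25, two-sided exact permutation p = 0.472). Leaving out control 1 gave 0.12 and leaving out swimming 2 gave 0.01.

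Pdgfc and Pdgfd encode ligands that are secreted with an inhibitory CUB domain and become active only once a protease has removed it. Pdgfc ranged from 1.12 to 2.15 FPKM (median 1.59) in the control group and from 0.812 to 2.05 FPKM (median 1.32) in the swimming group. The swimming tumors were the more spread out, with a coefficient of variation of 36.9% against 21.1%, and 3 of them, swimming 2, 4 and 6, were below all control tumors. The log2 difference of Pdgfc was -0.14 (95% confidence interval -0.43 to 0.16, two-sided exact permutation p = 0.368), the largest in size among the 6 genes. Of the genes tested, 79.5% had a smaller absolute difference. It was -0.25 with a pseudocount of 0.01 and -0.06 without swimming 6.

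Pdgfd was the weakest member, from 0.226 to 0.596 FPKM (median 0.541) in the control group and from 0.311 to 0.916 FPKM (median 0.531) in the swimming group. Swimming 5 was the highest and control 6 the lowest tumor. The log2 difference was 0.08 (95% confidence interval -0.12 to 0.28, two-sided exact permutation p = 0.413). With a pseudocount of 0.01 in place of 1 it was 0.23, and without swimming 5 it was 0.02.

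Pdgfra encodes receptor alpha, a common label of fibroblasts. It ranged from 3.14 to 7.14 FPKM (median 5.22) in the control group and from 3.59 to 6.57 FPKM (median 5.14) in the swimming group, so all 6 swimming tumors lay within the control range. The means were 5.24 ± 1.58 and 5.01 ± 1.11 FPKM (SD, n = 6 each), a log2 difference of -0.04 (95% confidence interval -0.41 to 0.34, two-sided exact permutation p = 0.855). Pdgfrb encodes receptor beta, which pericytes and fibroblasts carry. It ranged from 9.51 to 18.3 FPKM (median 15.5) in the control group and from 10.6 to 19.5 FPKM (median 14.7) in the swimming group. Its means of 14.7 ± 3.42 and 15 ± 2.96 FPKM (SD, n = 6 each) gave a log2 difference of 0.04 (95% confidence interval -0.31 to 0.38, two-sided exact permutation p = 0.838). The sign of both receptor differences turned when single tumors were left out, with ranges of -0.15 to 0.05 for Pdgfra and -0.07 to 0.13 for Pdgfrb. Expressed as folds of FPKM + 1, the intervals reach from 0.753 to 1.26 for Pdgfra and from 0.808 to 1.31 for Pdgfrb, so the data do not exclude differences within these limits.

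**Figure D2:**
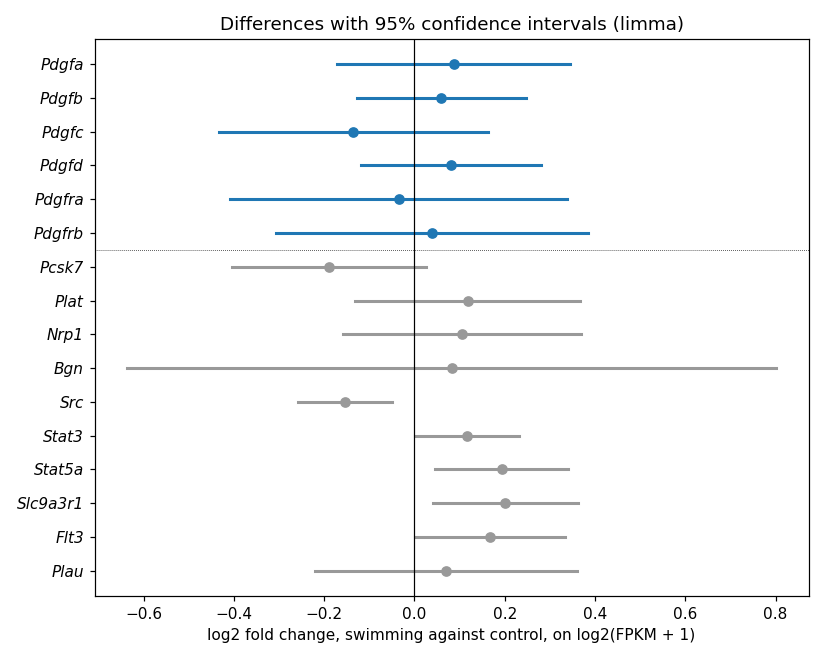
Difference between the swimming and the control group on the log2(FPKM + 1) scale with its 95% confidence interval in limma, for the 6 PDGF genes (blue, above the dotted line) and for 10 named genes of the pathway (grey). The intervals of all 6 PDGF genes include 0, and among the pathway genes shown the largest difference is that of Slc9a3r1 at 0.20.

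The abundance of one receptor followed that of the other across the tumors. Pearson's r between Pdgfra and Pdgfrb over the 12 tumors was 0.91 (permutation p = 3e-05, adjusted p = 0.0019 over 63 relations by Benjamini-Hochberg) and Spearman's rho was 0.82 (permutation p = 0.0017, adjusted p = 0.11). Within the control group r was 0.98 and within the swimming group 0.83, and without the tumors at the low end of Pdgfra, control 4 and swimming 6, it was 0.83. Pdgfrb was between 2.47 and 3.60 times the FPKM of Pdgfra in every tumor, 2.86 ± 0.247 times (SD, n = 6) in the control group and 3.03 ± 0.385 times (SD, n = 6) in the swimming group. Of the 15 pairs of members this was the one pair past the threshold by Pearson's r, and by Spearman's rho 0 pairs were.

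Pdgfa had negative correlations with both receptors, which did not pass the threshold after adjustment. Its r with Pdgfra was -0.70 (permutation p = 0.011, adjusted p = 0.17) and its rho was -0.72 (permutation p = 0.011, adjusted p = 0.17). Within the control and swimming groups r was -0.62 and -0.86. Without swimming 6 and control 4, the tumors highest in Pdgfa, r was -0.41. With Pdgfrb, r was -0.62 (permutation p = 0.032, adjusted p = 0.2) and rho -0.47 (permutation p = 0.13, adjusted p = 0.35). This r was -0.03 once the same tumors were left out. In swimming 6 Pdgfa was 19.1 FPKM, its highest value, while Pdgfra and Pdgfrb had the next to lowest of the 12 values at 3.59 and 10.6 FPKM. Pdgfa was accordingly 5.32 times the FPKM of Pdgfra in swimming 6 and 5.28 times in control 4, but 1.64 times in control 1. Among the ligands the strongest relation was that of Pdgfc and Pdgfd with r of 0.53 (permutation p = 0.072, adjusted p = 0.23) and rho of 0.57 (permutation p = 0.06, adjusted p = 0.26). With swimming 6 and swimming 2 left out, r was 0.41.

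**Figure D3:**
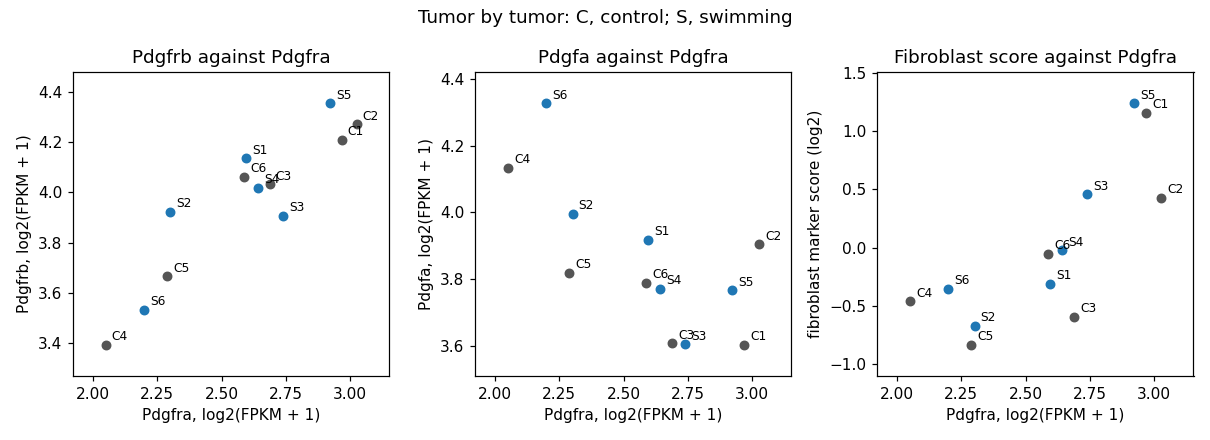
Pdgfrb, Pdgfa and the fibroblast marker score of each tumor (vertical axes, log2 scale) against Pdgfra (horizontal axes, log2(FPKM + 1)), with C for control and S for swimming and the replicate number. Against Pdgfra, r is 0.91 for Pdgfrb, -0.70 for Pdgfa and 0.78 for the fibroblast score, of which the first passed the threshold after adjustment, and control and swimming tumors are mixed along each axis.

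The receptors were also set against markers of the cells that carry them and of other cells. A score was the mean over the genes of a list of log2(FPKM + 1) minus the gene's mean over all tumors. It was taken for 10 fibroblast genes such as Col1a1, Col3a1 and Postn. Dcn, also of this list, was highest in control 4 at 51.7 FPKM, the tumor lowest in Pdgfra, and was 25.1 FPKM in swimming 5. The score had an r of 0.78 with Pdgfra (permutation p = 0.0024, adjusted p = 0.074) and a rho of 0.76 (permutation p = 0.0061, adjusted p = 0.13), and r was 0.71 without swimming 5 and control 1. Within the groups r was 0.76 and 0.87. With Pdgfrb the score had an r of 0.65 (permutation p = 0.021, adjusted p = 0.2) and a rho of 0.64 (permutation p = 0.028, adjusted p = 0.24), and leaving out the same tumors gave an r of 0.48. The pericyte list held 8 genes such as Rgs5 and Abcc9. Kcnj8, also of this list, was highest in control 5 at 5.01 FPKM, where Pdgfrb was 11.7 FPKM. In swimming 5, the tumor highest in Pdgfrb, Kcnj8 was 2.15 FPKM. For the pericyte score, r was 0.55 with Pdgfra (permutation p = 0.056, adjusted p = 0.23) and 0.50 with Pdgfrb (permutation p = 0.1, adjusted p = 0.27). The rho values were 0.41 (permutation p = 0.19, adjusted p = 0.4) and 0.43 (permutation p = 0.17, adjusted p = 0.38). Leaving out control 1 and control 3 gave r of 0.64 and 0.67. The smooth muscle and endothelial scores gave values of similar size. The smooth muscle score had an r of 0.62 with Pdgfra (permutation p = 0.032, adjusted p = 0.2) and a rho of 0.59 (permutation p = 0.046, adjusted p = 0.26), with an r of 0.39 when swimming 5 and control 1 were left out. With Pdgfrb this score had an r of 0.53 (permutation p = 0.073, adjusted p = 0.23) and a rho of 0.53 (permutation p = 0.08, adjusted p = 0.3). That r was 0.19 without the same tumors. The endothelial score had an r of 0.59 with Pdgfrb (permutation p = 0.046, adjusted p = 0.22) and a rho of 0.64 (permutation p = 0.03, adjusted p = 0.24). Its r with Pdgfra was 0.55 (permutation p = 0.062, adjusted p = 0.23) and its rho 0.49 (permutation p = 0.11, adjusted p = 0.33). When control 1 and swimming 5 were left out, the endothelial values of r were 0.37 with Pdgfrb and 0.23 with Pdgfra. The macrophage score had an r of 0.20 with Pdgfra and 0.15 with Pdgfrb, and the platelet score 0.06 and -0.17. For the skeletal muscle score r was 0.45 and 0.44, and for the adipocyte score 0.46 and 0.34.

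The summed levels of the marker lists overlapped between the groups. All 10 fibroblast genes passed the filter and were above 0 in every tumor, and their summed level was between 192 and 845 FPKM in control tumors and between 230 and 826 FPKM in swimming tumors. The sum over the 8 pericyte genes was between 28.8 and 80.3 FPKM and between 40.1 and 54.3 FPKM. For 9 endothelial genes the sum was between 37.1 and 67.2 FPKM and between 38.0 and 60.2 FPKM, and for 7 macrophage genes between 669 and 1000 FPKM and between 788 and 1160 FPKM. For 5 platelet genes it was between 30.5 and 62.5 FPKM and between 26.2 and 51.0 FPKM, and for 6 smooth muscle genes between 21.4 and 49.6 FPKM and between 23.8 and 51.2 FPKM, with Cnn1 at 0 in some tumors and under the filter, and with Gp9 of the platelet list at 0 in some tumors. Sums over 6 skeletal muscle genes reached from 1.73 to 165 FPKM and from 1.27 to 240 FPKM, and those over 6 adipocyte genes from 9.07 to 79.3 FPKM and from 11.5 to 30.6 FPKM. Myh4, Adipoq and Lep of these lists were at 0 in some tumors, and 4 of the 6 adipocyte genes passed the filter. With limma, 0 genes of any of these lists passed 0.05, adjusted or unadjusted. The part of these cells in the values of the PDGF genes was not tested. Of the epithelial markers, Krt18 was between 5.89 and 14.8 FPKM and Krt8 between 1.86 and 129 FPKM, the highest in control 4, whereas Epcam was at 0 in some tumors and at most 0.177 FPKM and Cdh1 at most 0.430 FPKM.

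**Figure D4:**
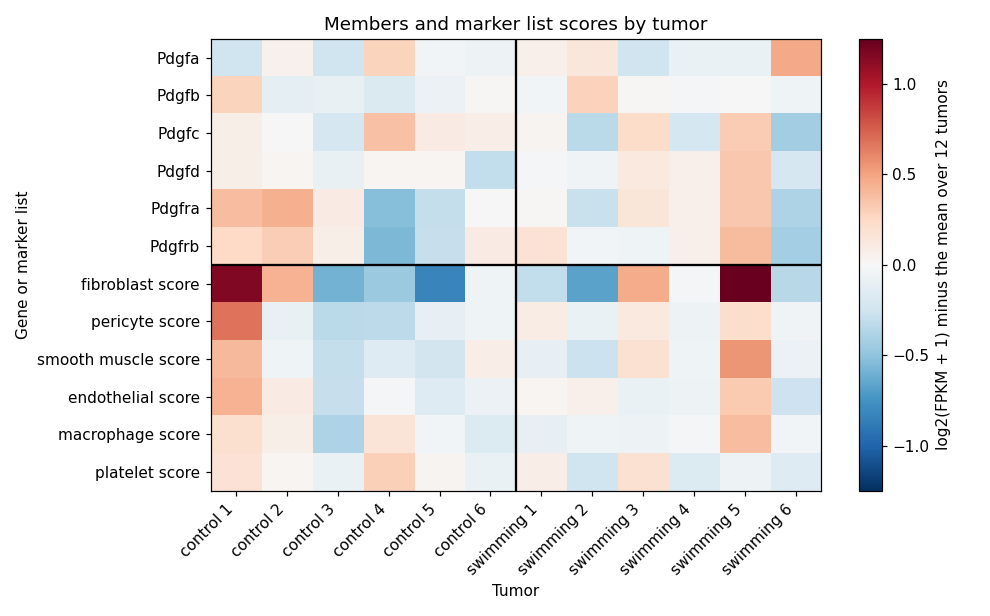
Each row is a PDGF gene or a marker list score and each column a tumor, coloured by log2(FPKM + 1) minus the mean over the 12 tumors, with control tumors left and swimming tumors right of the vertical line. Pdgfra and Pdgfrb are pale blue to blue in control 4, control 5 and swimming 6 and red in control 1, control 2 and swimming 5, and the fibroblast score is highest in swimming 5 (1.24) and control 1 (1.16).

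Genes with the most similar pattern were looked up among all genes with a mean of at least 1 FPKM, by r over the 12 tumors after the group means had been subtracted. For Pdgfra these were Islr, Rxra, Ephb3, Cd99l2 and Inmt, with r from 0.95 to 0.96. For Pdgfrb they were Rgl2, Gm2115, Bcl2, Srsf6 and Thbs3, with r from 0.93 to 0.96. The 5 closest to Pdgfa were Noc2l, Ube2j2, Kdelc1, Hspe1 and Tnfrsf10b (0.92 to 0.96), and those closest to Pdgfb were Setd6, Umad1, Vamp5, Gnb2 and Rchy1 (0.84 to 0.94). Pdgfc was most like Nf2, Twf1, Tmem219, Ciao2a and Nop9 (0.86 to 0.88), and Pdgfd most like Gpr180, Dpp3, B4galt5, Mcm3 and Nop9 (0.88 to 0.92). The highest values among many genes over 12 tumors are large in any case, and these names are a description.

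Around the ligands and receptors, 64 genes of the pathway were taken as 5 lists by their roles, and 63 of them passed the filter. With limma 0 of the 63 passed an adjusted and 6 an unadjusted p of 0.05. Of these 5 were higher in the swimming group, where 3.11% of all genes tested were, and 1 was lower, where 2.46% were. The median log2 difference of the 63 genes was 0.01, beside 0.004 over all genes tested.

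The proteases that make the ligands active were measured as 7 genes, 0 of them with an unadjusted p below 0.05, and their median log2 difference was -0.01. Plau, the urokinase that can activate PDGF-D, was at 40.7 ± 7.92 FPKM (SD, n = 6) in control and 42.6 ± 7.11 FPKM (SD, n = 6) in swimming tumors, far above the level of Pdgfd. Plat, the tissue plasminogen activator that cleaves PDGF-C, was at 1.63 ± 0.464 and 1.83 ± 0.308 FPKM (SD, n = 6 each). Plau had a log2 difference of 0.07 (two-sided exact permutation p = 0.645) and Plat one of 0.12 (p = 0.34 by the same exact test). For Plat a pseudocount of 0.01 gave 0.20. Pcsk7, a proprotein convertase, had the largest difference of the list at -0.19, from 5.73 ± 0.540 to 4.95 ± 0.937 FPKM (two-sided exact permutation p = 0.0931). Furin, the convertase that processes PDGF-A and PDGF-B, was at 14.2 ± 0.990 and 13.7 ± 1.74 FPKM (SD, n = 6 each).

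Among co-receptors and binding proteins 6 of 7 genes were tested, 0 with an unadjusted p below 0.05, and A2m did not pass the filter. Nrp1, a co-receptor of PDGF and VEGF ligands, ranged from 5.16 to 7.79 FPKM in control and from 4.998 to 8.90 FPKM in swimming tumors, a log2 difference of 0.11 (two-sided exact permutation p = 0.439). Bgn, a matrix proteoglycan, was at 22.8 ± 12.3 and 23.7 ± 11.96 FPKM (SD, n = 6 each). The most abundant of the list was Sparc, a matrix protein that binds PDGF-B, at 192 ± 75.6 and 190 ± 45.4 FPKM.

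The 31 adaptors and effectors that carry the signal of activated receptors held 4 genes with an unadjusted p below 0.05, a threshold that 5.56% of all genes tested passed. Of the 4, 3 were higher (3.11% of all genes) and 1 was lower (2.46%) in the swimming group. Stat5a, a transcription factor activated by cytokine and growth factor receptors, was at 1.15 ± 0.124 and 1.46 ± 0.188 FPKM (SD, n = 6 each) with a log2 difference of 0.19 (two-sided exact permutation p = 0.00649), and all 6 swimming tumors exceeded the control median of 1.15 FPKM. With pseudocounts of 0.1 and 0.01 the log2 difference of Stat5a was 0.32 and 0.34. Stat3 had a log2 difference of 0.12 (two-sided exact permutation p = 0.0325), and 6 of 6 swimming tumors exceeded its control median. For Src, a kinase that binds the activated receptors, 0 of 6 swimming tumors exceeded the control median. It was at 20.8 ± 1.24 FPKM in control and 18.6 ± 0.745 FPKM in swimming tumors (SD, n = 6 each), a log2 difference of -0.15 (two-sided exact permutation p = 0.00866). By limma the adjusted p of Stat5a, Stat3 and Src was 0.889 each, so none of them passed the threshold, and the median of the list was 0.01.

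Of 12 genes that attenuate the receptors, such as phosphatases and ubiquitin ligases, 1 had an unadjusted p below 0.05. Of all genes tested, 5.56% did. The 1 gene was Slc9a3r1, a scaffold protein that binds the tail of the receptors. It was at 13.5 ± 0.971 FPKM in control and 15.8 ± 1.87 FPKM in swimming tumors (SD, n = 6 each). Its log2 difference was 0.20 (limma adjusted p = 0.889, two-sided exact permutation p = 0.0216). The last list held 7 genes of the receptor kinases closest to the PDGF receptors, Kit, Csf1r and Flt3, with their ligands. Csf1r, the receptor of macrophage colony-stimulating factor, was at 35.3 ± 6.49 and 37.5 ± 4.87 FPKM, well above both PDGF receptors. Flt3, a receptor of blood progenitors and dendritic cells, was the 1 gene of these 7 with an unadjusted p below 0.05, beside 5.56% of all genes. It was at 0.187 ± 0.122 and 0.333 ± 0.121 FPKM (SD, n = 6 each), with a log2 difference of 0.17 (limma adjusted p = 0.889, two-sided exact permutation p = 0.0606). Flt3 is weakly expressed, and its log2 difference was 0.63 with a pseudocount of 0.1 and 0.90 with one of 0.01.

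Sequencing depth is unknown, since FPKM does not keep the number of reads, and no counting interval could be given. Depth relative to control 1, read from the steps in which the FPKM of low genes changes, was lowest in control 2 at 0.694 and at least 0.871 in the other tumors. At an equal FPKM, values are therefore least precise in control 2. There Pdgfd and Pdgfc were 0.539 and 1.45 FPKM and lay within the range of the other control tumors. Low values rest on few reads as well. The lowest were 0.226 FPKM for Pdgfd in control 6 and 0.812 FPKM for Pdgfc in swimming 6. Between 22293 and 23974 genes were above 0 per tumor.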

How the data were processed

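Ribosomal RNA was removed from total RNA of 12 tumors by the authors, who mapped the reads with HISAT2 2.0.5 and quantified them with StringTie 1.3.3. The deposited values are FPKM per gene, divided by the authors by gene length and sequencing depth, 1 table per tumor. The methods name hg38, while the submitters' processing notes also list GRCm38 and the identifiers are of mouse. Groups were taken from the sample labels. Genes that reached 0.1 FPKM in 6 or more tumors were compared on log2(FPKM + 1) with limma 3.58.1 (R 4.3.3, mean-variance trend, no covariate, Benjamini-Hochberg adjustment over 19018 genes). The fit was tested on simulated data. For single genes a two-sided exact permutation test was run over 924 divisions of the tumors, whose smallest p is 0.00216. Correlations used 100000 permutations. The 6 members and all lists were chosen with earlier results of these data known. From each pathway list, genes with an unadjusted p below 0.05 were named, otherwise the 2 with the largest differences at a mean of 1 FPKM or more, and Plat, Plau and Nrp1 in any case. A gene that this rule names is counted with its list but not reported here. Furin, Sparc and Csf1r were named after their values were seen. Sequences are from RefSeq (GRCm38.p6). The labels name no batch. Per the methods each mouse was injected at 1 site, so the tumors of a group are taken as separate mice. Tried in turn were pseudocounts of 0.1 and 0.01, no filter, a filter of 1 FPKM, quantile normalization, trimmed mean scaling, no trend, sample weights, a replicate block, and leaving out each tumor. Python 3.11.15 with pandas 2.3.3, scipy 1.17.1 and matplotlib 3.10.9 was used.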

Additional observations from a re-analysis of the deposited data

Results flagged for a closer look

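Dixon's ratio was used to search 52 groups of 6 values, 12 of them of PDGF genes, for a single tumor that stood apart. One was found in 4 of the 52, where chance gives about 2.6. Pdgfb was 6.49 FPKM in swimming 2, while the other swimming tumors lay between 4.92 and 5.19 FPKM. The pericyte marker score was 0.68 in control 1, with the other control tumors between -0.34 and -0.05. Control 1 was also far above its group in the adipocyte marker score, at 1.77 against -0.11 or less in the others. The macrophage marker score was 0.39 in swimming 5, with the other swimming tumors at or below -0.01.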

How the results depend on the processing

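Under 21 alternatives the 6 PDGF genes gave 125 values, of which 118 had the direction of the reported value and none passed the threshold, the smallest adjusted p being 0.768. The other 7 turned the sign of a receptor gene when 1 tumor was left out. Pdgfra lay between -0.15 (without control 4) and 0.05 (without control 2) and Pdgfrb between -0.07 (without control 4) and 0.13 (without swimming 6). With 1 tumor left out, the ranges were 0.001 to 0.15 for Pdgfa, 0.01 to 0.12 for Pdgfb, -0.21 to -0.06 for Pdgfc and 0.02 to 0.13 for Pdgfd. Under the other alternatives they were 0.08 to 0.09, 0.05 to 0.09, -0.25 to -0.14 and 0.06 to 0.23, and -0.05 to -0.04 for Pdgfra and 0.005 to 0.04 for Pdgfrb. Pdgfd could not be given with a filter of 1 FPKM. Bgn turned likewise, between -0.13 and 0.30. The number of all genes with an adjusted p below 0.05 was 1 with sample weights (Txndc5) and between 0 and 3 when 1 tumor was left out (Txndc5, Atp6v0c and Phospho2 without control 4, and 2 genes, Klf9 and Gm13419, without swimming 1), all named after their values were seen. With a pseudocount of 0.1, 2 of the 63 relations passed the threshold, that of Pdgfc with the platelet score (r = 0.86) beside that of the receptors. With quantile normalization, r was -0.004 for Pdgfb and Pdgfd and -0.04 for Pdgfc and Pdgfrb. For these changes the cause was not tested. Same-numbered tumors share only a number: their deviations had a mean correlation of -0.12, and 0 of 6 control tumors correlated best with their own number. With the replicate block, 0 genes had an adjusted p below 0.05, 892 had an unadjusted p below 0.05, and the log2 difference of Pdgfa was 0.09 (unadjusted p = 0.453).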

Other observations

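Pdgfc moved with the receptors in opposite ways in the groups. Its r with Pdgfra was -0.64 over the 6 control tumors and 0.92 over the 6 swimming tumors, and with Pdgfrb the values were -0.69 and 0.74. Over all 12 tumors the r of Pdgfc was 0.20 with Pdgfra and 0.10 with Pdgfrb. The difference between the groups was not tested, and each value rests on 6 tumors. Control 4 was the highest tumor for Pdgfc at 2.15 FPKM and the lowest for both receptors, while swimming 6 was the lowest for Pdgfc at 0.812 FPKM.

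Among the marker lists, Pdgfc had its highest r with the platelet score, at 0.78 (permutation p = 0.0035, adjusted p = 0.074) with a rho of 0.78 (permutation p = 0.0044, adjusted p = 0.13). Within the control and swimming groups r was 0.80 and 0.76, and without control 4 and swimming 2 it was 0.64. Pf4, the most abundant gene of that list, is also known from macrophages. Pdgfrl, a gene named for its likeness to the receptors, was 2.38 FPKM in swimming 5 and at most 1.05 FPKM in the other 11 tumors, and it was named here after its values were seen.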
